A study of Mus musculus with 5 samples.

Results

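The genes described here write, copy and remove methyl groups on cytosine in DNA. They are the DNA methyltransferase genes Dnmt1, Dnmt3a, Dnmt3b and Dnmt3l, the maintenance cofactor gene Uhrf1, and the oxygenase genes Tet1, Tet2 and Tet3. These 8 genes were taken by symbol, whatever their values, out of 55147 gene symbols in the table, and they held 77 of its 142647 transcripts.

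The study asked what loss of C3G (RAPGEF1), a guanine nucleotide exchange factor for small GTPases of the Ras family, does to gene expression in mouse embryonic stem (ES) cells. RNA-seq of total RNA was done on 3 samples of wild type (WT) cells and 2 samples of C3G knockout (C3G KO) cells, without treatment. Both groups were the E14Tg2a line, a widely used line of mouse ES cells, grown on gelatin in GMEM with serum and LIF. In the C3G KO cells a targeting vector with a puromycin cassette had been knocked in with CRISPR in place of early exons of Rapgef1, and the vector control clone of the study has no RNA-seq sample here. The labels do not say which knockout clone each C3G KO sample came from, and a line of this kind is derived from 1 clone. The study calls the samples independent, but no label ties them to separate cultures, so p-values measure only the spread between these samples, which may be technical.

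DNA methylation in mammals sits mostly on CG dinucleotides (CpG). DNMT3A and DNMT3B place new methyl groups, with DNMT3L as a partner that has no catalytic activity of its own, and DNMT1 copies the pattern to the new strand after replication, brought there by UHRF1, which reads half-methylated DNA. TET proteins oxidise methylcytosine, which is then diluted by replication or cut out and replaced by base excision repair, and ES cells are known for expressing both sets of enzymes at once.

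The 4 regions below lie upstream of annotated transcript starts and are shown because the results turn on the genes they precede: 2 starts of Dnmt3a that differed in their share of the gene's signal, Dnmt3b, and Tet3. Each is the stretch of 250 bases before the start in the RefSeq promoter table (build GRCm38.p6), 5′ to 3′ on the gene's strand, with CpG in capitals. These starts differ from some of the transcript starts used below. The upstream window of Dnmt3a contains the start of Dnmt3a-201 (3807030), and the internal window ends past the start of Dnmt3a-205 (3891728).
Dnmt3a, upstream start, chr12:3806910-3807159, plus strand: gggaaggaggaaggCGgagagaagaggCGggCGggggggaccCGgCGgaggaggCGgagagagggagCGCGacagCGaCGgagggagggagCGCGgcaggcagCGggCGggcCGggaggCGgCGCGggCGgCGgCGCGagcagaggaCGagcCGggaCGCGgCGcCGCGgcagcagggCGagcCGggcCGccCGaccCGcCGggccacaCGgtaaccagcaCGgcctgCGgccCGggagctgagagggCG
Dnmt3a, internal start, chr12:3891494-3891743, plus strand: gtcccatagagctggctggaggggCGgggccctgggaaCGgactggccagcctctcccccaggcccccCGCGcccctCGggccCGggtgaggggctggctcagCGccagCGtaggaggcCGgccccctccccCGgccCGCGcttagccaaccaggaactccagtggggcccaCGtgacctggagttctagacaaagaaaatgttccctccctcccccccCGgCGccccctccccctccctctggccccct
Dnmt3b, chr2:153649199-153649448, plus strand: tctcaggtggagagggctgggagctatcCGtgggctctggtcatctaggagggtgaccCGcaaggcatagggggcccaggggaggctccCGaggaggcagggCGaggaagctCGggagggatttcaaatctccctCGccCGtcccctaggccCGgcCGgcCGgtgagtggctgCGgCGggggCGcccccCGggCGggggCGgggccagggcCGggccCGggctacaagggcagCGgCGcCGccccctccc
Tet3, chr6:83441679-83441928, minus strand: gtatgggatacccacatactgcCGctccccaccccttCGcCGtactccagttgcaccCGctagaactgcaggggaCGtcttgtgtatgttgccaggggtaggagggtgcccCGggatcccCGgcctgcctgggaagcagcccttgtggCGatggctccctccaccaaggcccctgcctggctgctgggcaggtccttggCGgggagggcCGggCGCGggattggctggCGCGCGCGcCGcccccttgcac

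The upstream region of Dnmt3a held 40 CpG, more than 98.7% of the 32851 promoters of this length in the table, against 15 CpG before the internal start, 21 before Dnmt3b and 17 before Tet3. The median over all promoters was 6 CpG. The GC box GGGCGG, searched on both strands with overlapping matches counted, occurred 4 times before the upstream start of Dnmt3a, 3 times before Dnmt3b and 1 time before each of the internal start of Dnmt3a and Tet3, and 32.7% of all promoters held at least 1. The motif CCAAT had 1 match, before Tet3, and was in 33.8% of all promoters. The motif TTTNNCGC, an E2F-type sequence, had no match in these 4 windows and was in 4.28% of all promoters. These counts describe the letters of the windows and do not show binding.

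Expression is given as TPM, transcript abundance per transcript length on a total that is the same in every sample, summed per gene. The TPM include small RNAs, counted here together with ribosomal RNA and the ribosomal and transfer RNAs of mitochondria. These classes took 62.9% to 67.2% of the total in WT samples and 77.8% and 69.6% in the C3G KO samples. TPM of the tested genes as deposited were lower in C3G KO cells as a body, where the median log2 fold change of the 12518 tested genes was -0.55. Scaling by the median of ratios, a single factor per sample chosen so that the typical gene matches across samples, brought that median to 0.01, and directions below are relative to it. The factors were 1.34, 1.22 and 1.10 in WT samples and 0.619 and 0.906 in C3G KO samples. All 8 ES cell markers were detected, and none of them passed the gene test after scaling in either direction. As deposited Sall4 passed as lower (log2 fold change -0.90, limma adjusted p = 0.00435). The summed TPM of trophoblast markers was 5.03 to 6.15 in WT and 0.55 to 0.61 in C3G KO samples, that of mesoderm markers 6.48 to 8.90 and 1.66 to 3.46, and that of fibroblast markers 4.03 to 5.84 and 1.05 to 1.48. Of the 4 mesoderm markers 2 could be tested. In the gene test after scaling T was at -1.15 (adjusted p = 0.00254) and Eomes at 0.02 (adjusted p = 0.904). Endoderm, neural and primed epiblast markers overlapped between the groups in their sums. Among them Otx2, a primed epiblast marker, was higher after scaling by 0.99 (adjusted p = 0.00046) and Dab2, an endoderm marker, by 0.69 (adjusted p = 0.0247), and as deposited both did not pass (0.34 and 0.22). The sum of the ES cell markers was also lower in TPM as deposited, at 924 to 983 in WT and 543 and 800.5 in C3G KO samples. Neurog2, a neural marker, was listed at 0 in all 5 samples. Fewer cells of a type and less RNA per cell cannot be told apart in bulk samples. Rapgef1, the targeted gene, was at 11.6, 10.3 and 9.64 TPM in WT and 3.92 and 5.55 TPM in C3G KO samples. Its scaled level fell by 0.41 on the log2 scale (SE 0.06, limma adjusted p = 0.00444). The gene sum also counts reads from the later exons, which the vector does not replace, so it is not a measure of the replaced exons alone.

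In WT cells Dnmt3l had the highest level of the 8 genes, at 126 ± 2.27 TPM (SD, n = 3), followed by Tet1 at 74.8 ± 18.6 TPM. Dnmt3b (43.7 ± 4.58 TPM), Uhrf1 (40.1 ± 4.26 TPM) and Dnmt1 (36.3 ± 2.69 TPM) came next, and neighbours among these 3 overlapped in their sample ranges although the order was the same in each of the 3 samples. Tet2 stood at 27.8 ± 5.81 TPM, Dnmt3a at 8.91 ± 0.617 TPM and Tet3 at 2.35 ± 0.505 TPM, each apart from its neighbours. The order of the means was the same in the 2 C3G KO samples, where Tet1, Dnmt3b, Uhrf1, Dnmt1 and Tet2 overlapped from each neighbour to the next.

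**Figure D1:**
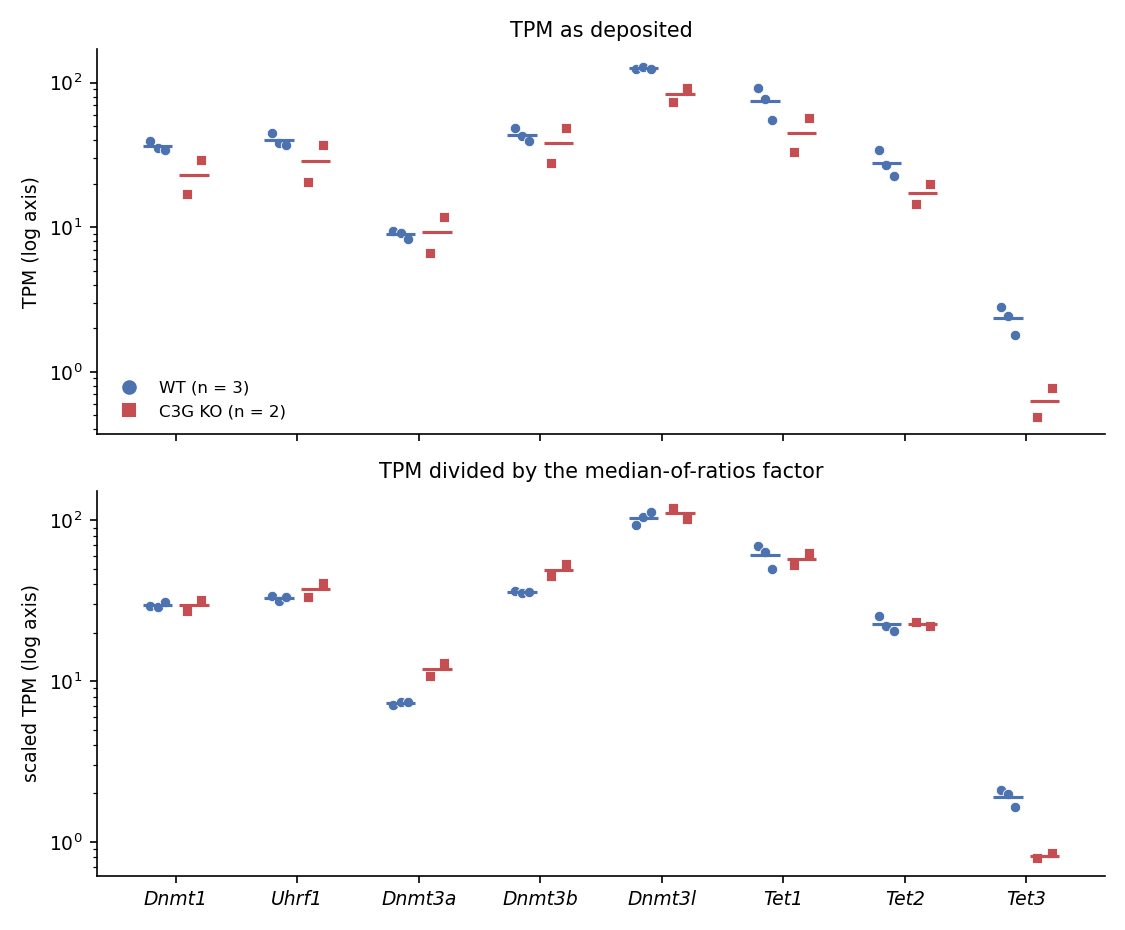
Level of each gene in every sample, as TPM (upper panel) and as TPM divided by the median-of-ratios factor of the sample (lower panel), both on log axes. Circles are the 3 WT samples, squares the 2 C3G KO samples and lines the group means. As deposited most C3G KO samples lie below WT, and after scaling Dnmt3a and Dnmt3b lie above it and Tet3 below it.

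Of the 8 genes, 3 passed the gene test after scaling (limma on log2 of scaled TPM + 1, with a Benjamini-Hochberg adjusted p under 0.05 over all tested genes). Tet3 was lower in C3G KO cells on both scales, while Dnmt3a and Dnmt3b were higher after scaling and, as deposited, had log2 fold changes of 0.0016 and -0.24 that did not pass. Over all tested genes 30.7% passed, 14.1% higher and 16.6% lower, so a count of 3 in 8 lies near the background and no more is read from the count than that. The median log2 fold change of the 8 genes was 0.05. The same 3 genes were the ones whose scaled values did not overlap between the groups, as was seen for 29.5% of tested genes in the higher and 29.3% in the lower direction. As deposited, 4 of the 8 passed, all lower (Dnmt1, Tet1, Tet2 and Tet3), where 58.2% of all tested genes passed and 56.8% passed as lower.

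Dnmt3a, one of the enzymes that methylate new sites, had scaled TPM of 7.06, 7.44 and 7.46 in WT and 10.8 and 13.01 in C3G KO samples. Both C3G KO samples lay above all WT samples. The log2 fold change was 0.63 (SE 0.09, 95% interval 0.41 to 0.84, adjusted p = 0.00425), or 1.63-fold between the means of scaled TPM. As deposited the TPM were 9.43, 9.08 and 8.23 in WT and 6.68 and 11.8 in C3G KO samples. There the groups overlapped and the log2 fold change was 0.0016 (adjusted p = 0.996), so the higher level is one relative to other genes.

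Dnmt3b, the other enzyme of new methylation, was at 36.4, 35.3 and 35.8 scaled TPM in WT and 44.9 and 53.5 in C3G KO samples, again without overlap. Its log2 fold change of 0.44 (SE 0.09, 95% interval 0.22 to 0.66, adjusted p = 0.0151) turned to -0.24 (adjusted p = 0.416) in TPM as deposited, which were 48.6, 43.0 and 39.5 in WT and 27.8 and 48.4 in C3G KO samples. The call was also lost without the second WT sample (0.43, adjusted p = 0.0644) and without the second C3G KO sample (0.32, adjusted p = 0.0512, where the lone C3G KO sample is assumed to vary like the WT samples, as in every fit without a C3G KO sample), and under quantile normalization (0.30, adjusted p = 0.0595) and scaling to an equal protein-coding total (0.22, adjusted p = 0.158).

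Dnmt3l, which partners both enzymes, was at 93.3, 105 and 113 scaled TPM in WT and 119 and 102 in C3G KO samples, with overlap. Its log2 fold change was 0.09 after scaling and -0.61 as deposited, and it passed in neither (adjusted p = 0.610 and 0.0506). The interval after scaling ran from -0.20 to 0.37, which does not show equal levels.

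A ratio between genes of 1 sample does not depend on a factor common to that sample. The log2 ratio of Dnmt3a to Dnmt1 was -2.06, -1.96 and -2.05 in WT and -1.34 and -1.30 in C3G KO samples. That of Dnmt3b to Dnmt1 was 0.31, 0.28 and 0.21 in WT and 0.71 and 0.74 in C3G KO samples. In both ratios the C3G KO samples lay above all WT samples and close to each other, so relative to the maintenance enzyme both enzymes of new methylation stood higher on either scale. Between the pair, the log2 ratio of Dnmt3b to Dnmt3a was 2.37, 2.24 and 2.26 in WT and 2.06 and 2.04 in C3G KO samples, lower in both. The ratio of Dnmt3b to Dnmt3l overlapped, from -1.66 to -1.36 in WT and at -1.41 and -0.93 in C3G KO samples.

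Of the maintenance pair, Dnmt1 was at 29.4, 29.0 and 30.9 scaled TPM in WT and 27.4 and 32.1 in C3G KO samples, which enclosed the WT values. The log2 fold change was -0.0050 after scaling (95% interval -0.22 to 0.21, adjusted p = 0.973) and -0.68 as deposited (adjusted p = 0.0259), where all C3G KO values (17.0 and 29.1 TPM) were under the WT values (34.1 to 39.3 TPM).

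Uhrf1, the protein that brings DNMT1 to replicated DNA, was at 33.7, 31.5 and 33.5 scaled TPM in WT and 33.3 and 41.0 in C3G KO samples, with overlap, and passed in neither scale (log2 fold change 0.17, 95% interval -0.08 to 0.41, adjusted p = 0.264 scaled, and -0.51, adjusted p = 0.0865 as deposited). The log2 ratio of Uhrf1 to Dnmt1 was 0.19, 0.12 and 0.12 in WT and 0.28 and 0.36 in C3G KO samples, without overlap.

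Tet3, the TET gene that ES cells are known to express least and that acts in the zygote and in neural lineages, showed the largest log2 fold change of the 8 genes after scaling with 1 TPM added. With 5 TPM added, or after the length and GC correction, Dnmt3a and Dnmt3b had larger ones. Its TPM as deposited were 2.81, 2.43 and 1.81 in WT and 0.49 and 0.77 in C3G KO samples, and its scaled TPM were 2.10, 1.99 and 1.64 in WT and 0.792 and 0.850 in C3G KO samples. All C3G KO values were under all WT values on both scales. As deposited only the WT samples reached 1 TPM, so Tet3 met the filter for testing through the group where it was higher. The log2 fold change was -0.67 (SE 0.09, 95% interval -0.90 to -0.44, adjusted p = 0.00417) after scaling and -1.03 (adjusted p = 1.04e-06) as deposited. Since 1 TPM was added before the logarithm, this understates a change at such a level, and the means of scaled TPM stood at 0.429 of WT. The marker sums of trophoblast, mesoderm and fibroblast given above were lower in the same samples, and their part in the value of Tet3 was not tested.

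Tet1, the main TET gene of ES cells, was at 69.1, 63.2 and 50.0 scaled TPM in WT and 53.1 and 62.7 in C3G KO samples, both inside the WT range. The log2 fold change was -0.06 (95% interval -0.43 to 0.31, adjusted p = 0.794) after scaling and -0.75 (adjusted p = 0.0174) as deposited. As deposited the groups still overlapped, with the third WT sample at 55.2 TPM and the second C3G KO sample at 56.8 TPM. Tet2, the other TET gene of ES cells, was at 25.5, 22.0 and 20.4 scaled TPM in WT and 23.2 and 22.1 in C3G KO samples, also inside the WT range. Its log2 fold change was 0.01 (95% interval -0.24 to 0.26, adjusted p = 0.956) after scaling and -0.66 (adjusted p = 0.0281) as deposited.

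Set against each other, Tet3 made up 2.18%, 2.28% and 2.28% of the summed TPM of the TET genes in WT and 1.03% and 0.993% in C3G KO samples. The log2 ratio of Tet3 to Tet1 was -5.04, -4.99 and -4.93 in WT and -6.07 and -6.20 in C3G KO samples. The share of Tet3 was therefore lower in both C3G KO samples than in any WT sample, with little spread within either group. The log2 ratio of Tet2 to Tet1 overlapped, from -1.52 to -1.30 in WT and at -1.19 and -1.50 in C3G KO samples. The summed TET level over the summed level of Dnmt3a and Dnmt3b was 2.22, 2.04 and 1.66 in WT and 1.38 and 1.29 in C3G KO samples, lower in both.

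**Figure D2:**
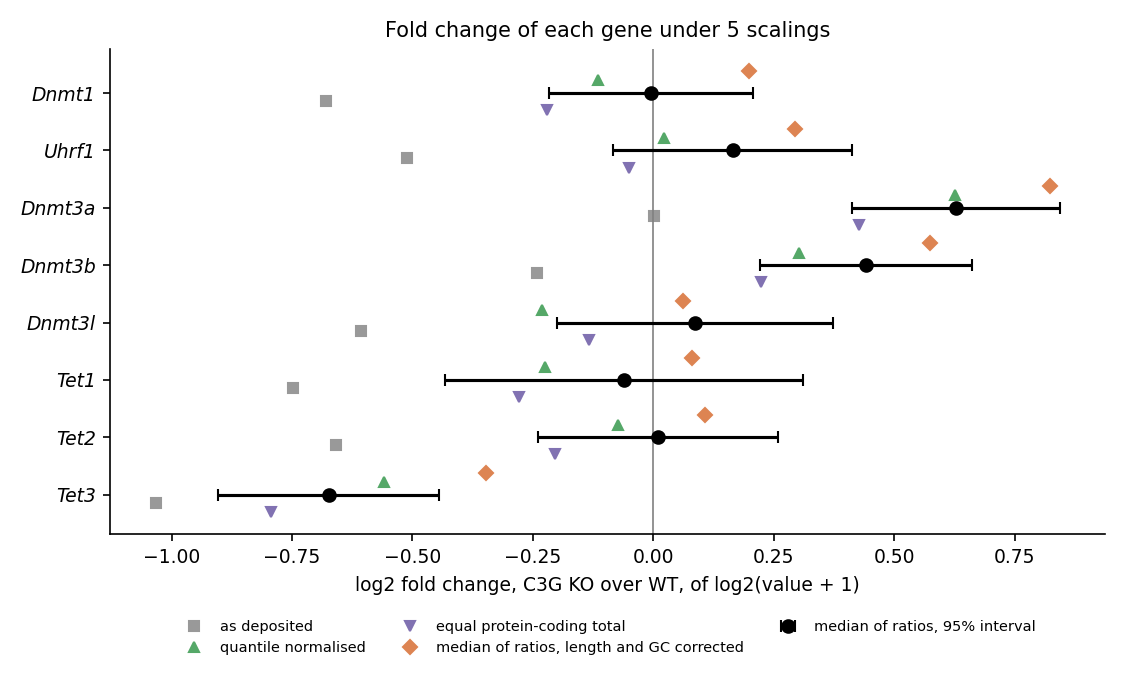
Log2 fold change of each gene, C3G KO over WT, on log2(value + 1). Black circles with bars are the median-of-ratios values with their 95% intervals, and the other symbols are the same fit on TPM as deposited, after quantile normalization, after scaling to an equal protein-coding total, and after median of ratios with a length and GC correction. Tet3 lies under 0 under all 5 scalings, Dnmt3a lies at or above it, and the other genes change sign.

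Transcript length moved with the fold changes over all genes. In the decile of tested genes with the shortest transcripts the median log2 fold change was 0.26 and in the decile with the longest -0.11, where 29.1% of genes passed as lower and 6.07% as higher. Tet3 (8503 bases, weighted by TPM), Tet1, Tet2 and Dnmt1 were in that longest decile, and Dnmt3a and Dnmt3b in the decile before it. After a correction of each sample for length and GC content, in which 29.4% of genes passed, Tet3 was at -0.35 (adjusted p = 0.0197), Dnmt3a at 0.82 (adjusted p = 0.00135) and Dnmt3b at 0.57 (adjusted p = 0.00359). These 3 genes passed with and without the correction, which brought Tet3 closer to 0 and moved Dnmt3a and Dnmt3b farther from it.

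**Figure D3:**
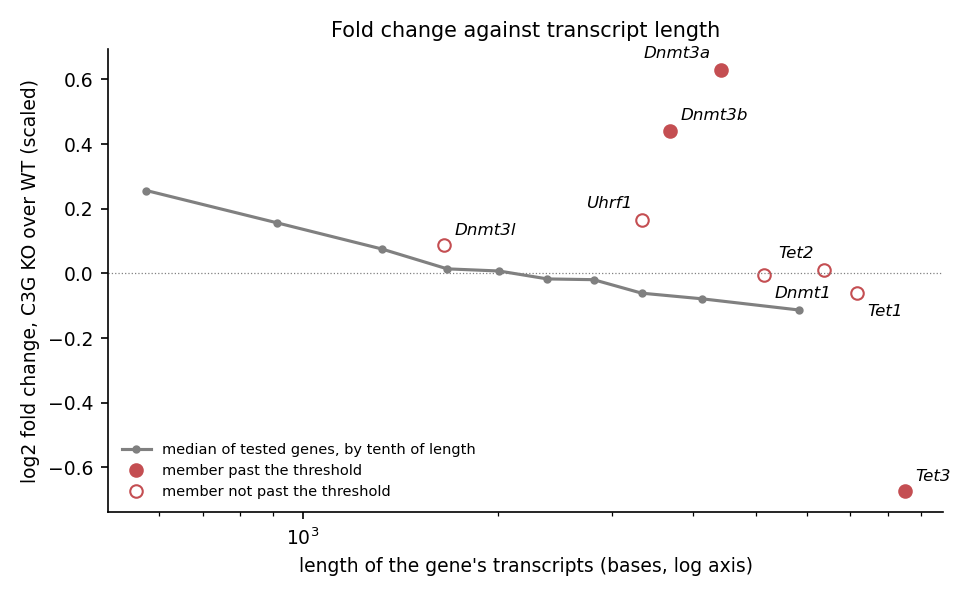
Log2 fold change after scaling against the length of each gene's transcripts, weighted by TPM, in bases on a log axis. The grey line joins the medians of all tested genes in deciles of length, from 0.26 to -0.11, filled circles passed the gene test and open circles did not. Dnmt3a and Dnmt3b lie above the line and Tet3, the longest of the 8, lies below it.

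Per transcript, 14 of the 77 transcripts were listed at 0 in all samples, 35 had a mean of at least 1 TPM in a group and 36 were tested. After scaling 2 of the 36 passed the transcript test, Dnmt3a-205 and Dnmt3b-202, both higher (all transcripts: 8.43% in either direction, 3.35% higher), and as deposited neither of them did (log2 fold change 0.28, adjusted p = 0.342, and 0.82, adjusted p = 0.0734). The 5 that passed as deposited were Dnmt1-202, Tet1-203, Tet1-205, Tet1-207 and Tet3-202, all lower, beside 23.3% of all transcripts in either direction and 22.9% lower. RSEM divides reads that transcripts share, so values of transcripts from 1 gene are not independent of each other.

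Dnmt3a has coding transcripts from upstream starts, at 3807030 (Dnmt3a-201) and 3807160 (Dnmt3a-218) on chromosome 12, and from an internal start at 3891728 (Dnmt3a-205). The upstream form encodes 908 residues and the internal form 689 residues without the N-terminal part, the form for which ES cells are known. Dnmt3a-205 was at 4.23, 4.49 and 4.26 TPM in WT and 3.98 and 7.43 TPM in C3G KO samples, which made 44.9%, 49.4% and 51.8% of the gene in WT and 59.6% and 63.02% in C3G KO samples. Its share was higher in both C3G KO samples. Its scaled level had a log2 fold change of 0.86 (SE 0.13, 95% interval 0.54 to 1.18, adjusted p = 0.0215).

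The upstream transcripts were lower in both C3G KO samples as a share of the gene. Dnmt3a-218 made 27.3%, 25.4% and 25.9% of the gene in WT and 22.3% and 22.8% in C3G KO samples, and Dnmt3a-201 made 11.3%, 12.4% and 10.2% in WT and 5.99% and 5.17% in C3G KO samples. The summed internal over the summed upstream form was 1.16, 1.28 and 1.43 in WT and 2.11 and 2.25 in C3G KO samples, without overlap. The scaled level of Dnmt3a-218 was higher in both C3G KO samples than in any WT sample but did not pass (log2 fold change 0.33, 95% interval 0.09 to 0.58, adjusted p = 0.101; -0.14 as deposited), and it stood lower as a share beside the larger value of Dnmt3a-205. The scaled level of Dnmt3a-201 did not pass (log2 fold change -0.14, adjusted p = 0.467, and 0.01 after quantile normalization). The transcripts also differ in length: Dnmt3a-201 and Dnmt3a-218 have 9685 and 8737 bases, with last exons of 6838 and 5886 bases, against 2328 bases and a last exon of 237 bases in Dnmt3a-205. After the length and GC correction the values were 0.93 (adjusted p = 0.0143) for Dnmt3a-205 and 0.06 (adjusted p = 0.780) for Dnmt3a-201. The start and the 3′ end of these transcripts cannot be told apart as what moved, since they differ in both.

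Dnmt3b was spread over 4 coding transcripts from nearly the same start. Dnmt3b-208 lacks exons at chr2:153683608-153683677 and chr2:153684359-153684477, which hold part of the catalytic domain, and encodes 796 residues, against 860 in Dnmt3b-201 and Dnmt3b-207 and 859 in Dnmt3b-202. Dnmt3b-202 was at 5.80, 4.51 and 2.97 TPM in WT and 5.18 and 13.2 TPM in C3G KO samples, or 11.9%, 10.5% and 7.51% of the gene in WT and 18.6% and 27.3% in C3G KO samples. The share was higher in both, with a wide gap between them, and the log2 fold change of its scaled level was 1.42 (SE 0.26, 95% interval 0.76 to 2.07, adjusted p = 0.0359).

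Dnmt3b-202 and Dnmt3b-201 differ in little sequence, namely a 5′ exon of 115 bases that Dnmt3b-202 lacks, an exon of 85 bases in place of 88, and a few bases at the ends, so their separate levels are uncertain. Dnmt3b-208, the form without the catalytic exons, made 29.6%, 31.7% and 32.4% of the gene in WT and 27.6% and 26.5% in C3G KO samples. Coding transcripts with both exons held 65.0%, 65.0% and 62.8% of the coding signal in WT and 68.5% and 70.6% in C3G KO samples, higher in both. That rested on Dnmt3b-202, because the ratio of Dnmt3b-208 to the sum of Dnmt3b-201 and Dnmt3b-207 was 0.682, 0.652 and 0.673 in WT and 0.668 and 0.736 in C3G KO samples, with overlap.

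**Figure D4:**
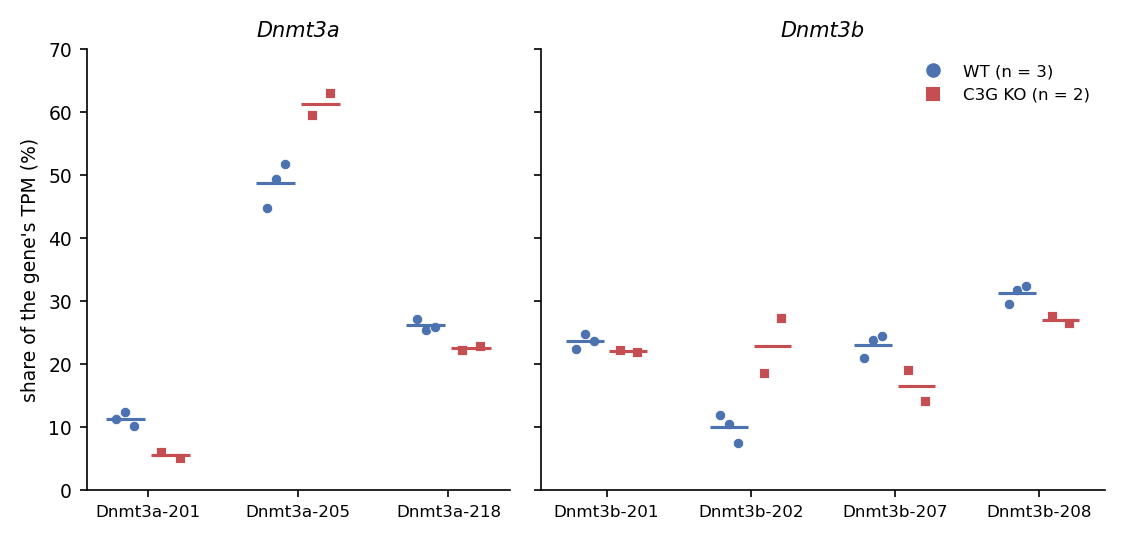
Share of the gene's TPM taken by each coding transcript of Dnmt3a and Dnmt3b with a mean of at least 1 TPM in a group, in percent. Circles are the 3 WT samples, squares the 2 C3G KO samples and lines the group means. Dnmt3a-205 and Dnmt3b-202 took a larger share in both C3G KO samples and the other coding transcripts a smaller one.

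The transcript usage test (limma diffSplice, each transcript against the others of its gene) called Dnmt3b-202 (log2 difference 1.19, adjusted p = 0.00563), Dnmt3a-205 (0.76, adjusted p = 0.0129) and Dnmt3a-201 (-0.74, adjusted p = 0.0161), where 1.71% of 19291 transcripts were called. On simulated data 50.7% of the transcripts that this test called had not been changed, so its calls are weak. Dnmt3a-201 was at 1.07, 1.13 and 0.84 TPM in WT and 0.40 and 0.61 TPM in C3G KO samples. It thus lay near the filter of 1 TPM and met it through WT samples alone, the group where it was higher. A test of each transcript against the summed rest of its gene, added after seeing the data, called none of 35 member transcripts after adjustment (limma, adjusted p = 0.178 for Dnmt3a-201, 0.264 for Dnmt3a-205 and 0.236 for Dnmt3b-202) and 7 at an unadjusted p under 0.05, and it called 12 of all transcripts, 0.0622%. In simulation that second test recovered none of 100 transcripts changed by a log2 value of 1, so its lack of calls does not show unchanged usage. The share of the gene did not overlap between the groups for 8 of the 35 in the higher and 10 in the lower direction, against 11.8% and 13.6% of all transcripts. Both calls of the transcript test were lost whenever any 1 sample was left out, with fewer samples in each fit.

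For the other 6 genes the transcripts gave the following. Dnmt1 came mainly from Dnmt1-201 (1620 residues), at 26.3, 22.9 and 22.6 TPM in WT and 11.4 and 19.9 TPM in C3G KO samples, and less from Dnmt1-202, which starts farther upstream and encodes 1501 residues. The ratio of Dnmt1-202 to Dnmt1-201 was 0.366, 0.419 and 0.373 in WT and 0.355 and 0.327 in C3G KO samples. Both were lower than in any WT sample, by a small step.

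Dnmt3l came from Dnmt3l-201 and Dnmt3l-208, which encode the same 421 residues from neighbouring starts. Their ratio was 0.750, 0.744 and 0.791 in WT and 1.02 and 0.854 in C3G KO samples, higher in both. Uhrf1 came mainly from Uhrf1-201, at 24.9, 22.3 and 23.6 TPM in WT and 11.3 and 21.8 TPM in C3G KO samples. Its Uhrf1-203, Uhrf1-204 and the non-coding Uhrf1-206 had means between 1.11 and 7.13 TPM in the 2 groups. Uhrf1-203 made 12.3%, 14.6% and 16.1% of the gene in WT and 24.7% and 16.4% in C3G KO samples. Its share and that of Uhrf1-206 were higher in both C3G KO samples. The scaled level of Uhrf1-203 did not pass the transcript test (log2 fold change 0.57, adjusted p = 0.0613).

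Tet1-206, the full-length form of 2039 residues, was at 39.8, 30.5 and 27.2 TPM in WT and 15.9 and 26.8 TPM in C3G KO samples. It took 44.0% ± 4.93 of the gene in WT (SD, n = 3) and 48.4% and 47.3% in C3G KO samples, with overlap. The other Tet1 transcripts above 1 TPM were Tet1-201, which encodes 2007 residues, the non-coding Tet1-202, and the short models Tet1-203, Tet1-205, Tet1-207, Tet1-209 and Tet1-210, of which Tet1-203 held 6.74%, 5.53% and 5.11% in WT and 2.92% and 1.87% in C3G KO samples, Tet1-207 held 7.37%, 9.75% and 7.14% and then 5.87% and 6.17%, both without overlap and lower, and Tet1-209 held 22.8% ± 0.358 in WT (SD, n = 3) and 24.9% and 28.5% in C3G KO samples.

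Tet2 differed from the other genes in how much of its signal lay on non-coding models: coding transcripts took 54.1%, 58.9% and 62.6% in WT and 57.5% and 61.4% in C3G KO samples, against 83.7% or more in every sample of each other gene. Tet2-204 (1920 residues) was at 14.9, 13.4 and 10.5 TPM in WT and 6.63 and 9.98 TPM in C3G KO samples, and its share of the gene overlapped. Tet2-201 and the non-coding Tet2-202, Tet2-203, Tet2-208, Tet2-209 and Tet2-210 made up the rest above 1 TPM.

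Tet3-202, with 1668 residues, was the one Tet3 transcript that could be tested. It was at 1.53, 1.28 and 1.02 TPM in WT and 0.29 and 0.44 TPM in C3G KO samples, without overlap. Like the gene, it met the filter for testing through the WT samples alone. Its scaled log2 fold change of -0.46 did not pass (adjusted p = 0.0619) and passed as deposited (-0.73, adjusted p = 0.0239). It held 54.5% ± 1.84 of the gene in WT (SD, n = 3) and 59.2% and 57.1% in C3G KO samples, a slightly larger share in both. The genes nearest to Tet3 in pattern over the 5 samples, by the root mean square difference of centred scaled values, were Foxo3 (0.0093), Efnb1, Arhgef17, Trim44 and Zfp362 (0.029).

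Around the 8 genes stand 8 lists of the pathway, whose counts after scaling are read beside the 14.1% of all tested genes that were higher and 16.6% that were lower after scaling. As deposited, where 1.45% of all tested genes passed as higher and 56.8% as lower, 2 germline genes and no gene of the other 7 lists passed as higher. The lower genes then numbered 10 for maintenance and recruitment, 9 for excision, 3 for TET partners and 2-oxoglutarate supply, 11 for readers, 3 for the S-adenosylmethionine cycle, 5 for germline genes, 4 for naive-state regulators and 5 for S phase and proliferation.

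Partners of maintenance and recruitment, 18 tested genes, had 5 higher, 3 lower and 10 not past the threshold, with a median log2 fold change of 0.04 beside 0.01 for all tested genes. Dppa3, which keeps UHRF1 off chromatin in germ cells and the zygote, was at 2.59, 2.68 and 2.57 scaled TPM in WT and 5.46 and 5.59 in C3G KO samples. Its log2 fold change was 0.85 (adjusted p = 0.00046) and stayed positive as deposited (0.30, adjusted p = 0.215). Cdca7l, related to an activator of the remodeller HELLS, was higher by 0.48 (adjusted p = 0.0163) after scaling and at -0.08 as deposited. The histone H3K9 methyltransferases Suv39h1 and Ehmt2 fell by 0.40 and 0.38 on the log2 scale (adjusted p = 0.019 and 0.00615), and were lower as deposited too. Hells, the remodeller itself, was at 0.19 (adjusted p = 0.0756), and Uhrf2, the paralog of Uhrf1, at -0.14 (adjusted p = 0.209), and neither passed. Nsd1, Pcna and Cdca7 were the other higher genes and Setd2 the other lower one. Genes listed in this way with no value, here and below, were named after their values were seen.

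The list for excision of oxidised or deaminated cytosine, 16 tested, had 3 higher and 5 lower, with a median of 0.06. It also holds deaminase family and Gadd45 genes, which do not cut out bases, so its counts are not those of excision enzymes alone. Tdg, the glycosylase that removes the products of TET, was at 12.2, 12.9 and 11.8 scaled TPM in WT and 14.5 and 19.2 in C3G KO samples. Its log2 fold change of 0.41 (adjusted p = 0.0435) turned to -0.24 as deposited. Apobec2 and Apobec3, members of the cytidine deaminase family, were higher by 0.61 and 0.56 (adjusted p = 0.00304 and 0.00184), with 0.14 and -0.10 as deposited. Gadd45g, a stress-response gene linked to demethylation, fell by 0.79 on the log2 scale (adjusted p = 0.00189), as did Apex1, the abasic site endonuclease, by 0.70 (adjusted p = 0.0066), and both were lower as deposited. Apex1 lies on chromosome 14 between 40 and 80 Mb, where 85.7% of 251 tested genes were lower, with a median of -0.71. In that stretch 2 tested genes were higher, among them Otx2, the primed epiblast marker given above. Xrcc1, Gadd45a and Gadd45b were the other lower genes.

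Partners of TET and suppliers of its cosubstrate 2-oxoglutarate, 14 tested, had 5 higher and 1 lower, with a median of 0.28. Idh1, the cytosolic isocitrate dehydrogenase, was at 10.95, 12.5 and 12.3 scaled TPM in WT and 21.8 and 22.2 in C3G KO samples, which is a rise of 0.83 on the log2 scale (adjusted p = 0.00105) and 0.17 as deposited. Idh3g, a subunit of the mitochondrial enzyme, was higher by 0.60 (adjusted p = 0.00931) after scaling and at -0.08 as deposited, and Gpt2, Idh2 and D2hgdh were the others. Cxxc5, a CpG-binding protein related to TET partners, fell by 0.26 on the log2 scale (adjusted p = 0.0477).

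Readers of CpG and methyl-CpG, 13 tested, had 1 higher and 3 lower, with a median of -0.22. Mbd2, a reader that recruits the NuRD repressor, was at 6.13, 6.83 and 6.04 scaled TPM in WT and 3.22 and 3.74 in C3G KO samples, and fell by 0.71 on the log2 scale (adjusted p = 0.00238). Kmt2b, an H3K4 methyltransferase with a CXXC domain, fell by 0.41 (adjusted p = 0.0397), and Mbd1 was the other lower gene. Mbd3, a NuRD subunit, was higher by 0.27 (adjusted p = 0.0455) and at -0.41 as deposited. In the S-adenosylmethionine cycle, which supplies the methyl donor, Mat2b was higher by 0.34 (adjusted p = 0.0188; -0.33 as deposited) and Mtr fell by 0.35 (adjusted p = 0.0102) among 10 tested genes with a median of 0.16.

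Germline genes, whose promoters are known to be kept silent by methylation, went both ways: of 15 tested, 7 were higher and 4 lower, with a median of 0.30. Sohlh2, a germ cell transcription factor, was at 1.39, 1.40 and 1.495 scaled TPM in WT and 5.48 and 4.90 in C3G KO samples. Its log2 fold change was 1.35 (adjusted p = 0.000226), with 0.84 as deposited. Tuba3a, a testis tubulin, was higher by 2.38 (adjusted p = 5.58e-05) and by 1.75 as deposited, but it shares reads with a near-identical copy and its own level is uncertain. Piwil2, a piRNA pathway gene, fell by 0.997 on the log2 scale (adjusted p = 0.00139) and lies in the same stretch of chromosome 14 as Apex1. Ddx4, a germ cell RNA helicase, fell by 0.67 (adjusted p = 0.00235), and Taf7l and Sycp3 were the other lower genes. Without the genes of that stretch the lower counts were 3 for germline genes and 4 for the excision list.

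Regulators of the naive state that act upstream of the enzymes of new methylation had 1 higher and 2 lower of 12 tested, with a median of 0.16. Prdm14, which is known to repress Dnmt3b and Dnmt3l, was at 1.83, 1.87 and 2.07 scaled TPM in WT and 3.006 and 3.002 in C3G KO samples, a log2 fold change of 0.45 (adjusted p = 0.00603; -0.03 as deposited). Klf4 and Klf5, transcription factors of the naive network, fell by 0.51 and 0.45 on the log2 scale (adjusted p = 0.0348 and 0.0257). Of 19 genes of S phase and proliferation, 8 were higher and 1 lower, with a median of 0.31. The higher count depended on the setting, with 5 under quantile normalization or the replicate block, 4 without a filter on low TPM, 3 with protein-coding totals and 0 as deposited. Gins2 and Mcm3, parts of the replicative helicase, were higher by 0.59 and 0.46 (adjusted p = 0.0203 and 0.00868), and turned to -0.05 and -0.22 as deposited. Mki67, a proliferation marker, fell by 0.33 (adjusted p = 0.0472).

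**Figure D5:**
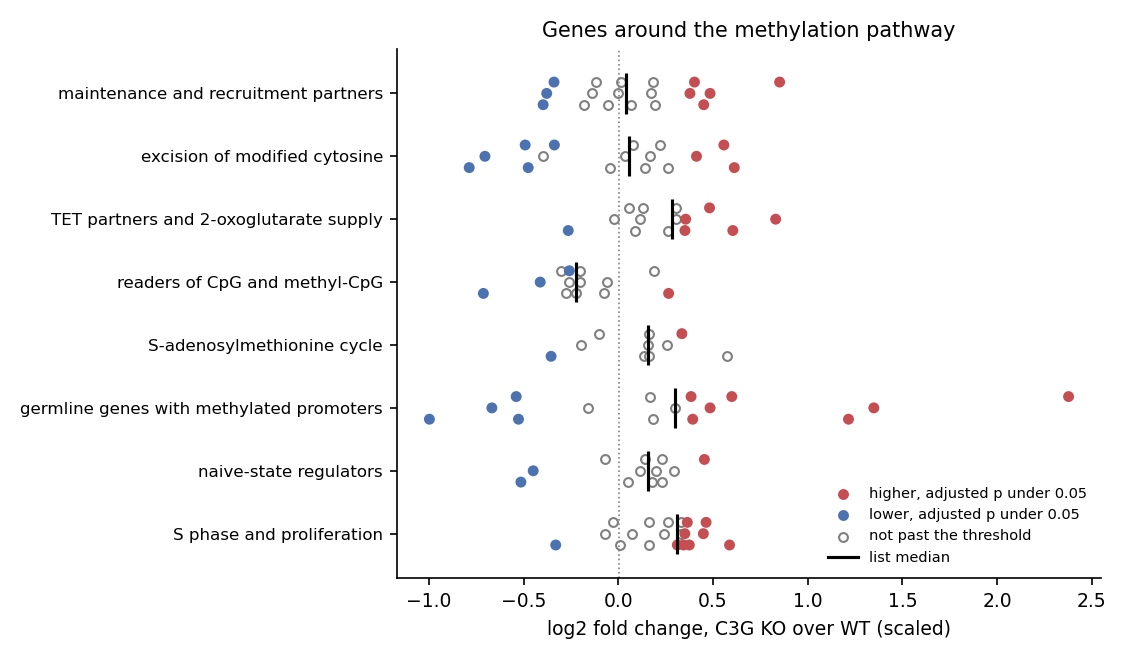
Log2 fold change after scaling, C3G KO over WT, of each tested gene in 8 lists around the methylation pathway. Red and blue points passed the gene test as higher and lower, open points did not, black bars are list medians and the dotted line is the median of all tested genes. The medians run from -0.22 for the readers to 0.31 for S phase and proliferation, and the germline genes spread widest, from -0.997 to 2.38.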

How the data were processed

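RNA-seq of 3 WT and 2 C3G KO samples was used. The deposited table holds TPM per transcript, made by the authors; per the labels, bcl2fastq 2.20, FastQC 0.11.7, STAR 2.5.1b and RSEM 1.2.31 were used with GRCm38 (mm10). The annotation release is not given in the sources used here. The study tested counts, which are not in this table, so depth and counting error are unknown and the number of samples limits precision. Transcripts were matched to GENCODE M21 (141524 matched, 1123 not) and TPM summed by symbol. Features with at least 1 TPM in at least 2 samples were kept, divided by median-of-ratios factors and tested as log2(value + 1) with limma 3.58.1 (R 4.3.3; trend, two-sided, Benjamini-Hochberg threshold 0.05). A feature could meet the filter of 1 TPM through 1 group alone, as Tet3, Gadd45g, Piwil2 and Taf7l did through the WT samples. Prior degrees of freedom were 3.11 scaled and infinite as deposited, where the spread of the single gene is not used. Gene length and GC content were averages weighted by TPM, and the correction was a loess fit with a span of 0.5. Figures used matplotlib 3.10.9.

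The genes and lists were chosen with earlier results of these data known. Named were the 8 genes and their transcripts with a mean of 1 TPM in a group, Rapgef1, the 2 strongest called rises and falls of each list, Uhrf2, Hells, Tdg and Dppa3, and the 5 genes nearest in pattern to the gene with the largest change. Dnmt1-203 and the non-coding Dnmt3b-211, Dnmt3b-212 and Dnmt3l-207 also met the rule for transcripts and are not described above. Tested on simulated data, the gene test recovered 50% of 100 genes changed by a log2 value of 0.5 and 90% of 100 changed by 1 among 12299 genes, with 6 other calls in 146. The transcript test recovered 0 and 47 of 100, with 1 other call in 48. Recovery at low TPM, where Tet3 and Dnmt3a-201 lie, was not tested separately. Alternatives changed the scaling, pseudocount, filter, trend, length and GC correction, replicate block and each sample left out.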

Additional observations from a re-analysis of the deposited data

How the results depend on the processing

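Tet3 kept its direction and call at the gene level under all alternatives that tested it (a filter of 5 TPM left it out). Among alternatives other than leaving out a sample it lay between -1.12 and -0.25, and its highest limma adjusted p was 0.0484, close to the threshold. In the main fit Tet3 met the filter of 1 TPM through the WT samples alone, where it was higher. Dnmt3a kept its call except in TPM as deposited, with or without the length and GC correction (0.0016 and 0.17). Dnmt3b lost its call there, under quantile normalization and protein-coding totals, and without the second sample of either group. Among the 8 genes 3 passed, 2 or 3 with a sample left out, and 1 as deposited with the length and GC correction. The scaling of samples decided most directions. As deposited, Dnmt3b (-0.24), Dnmt3l (-0.61), Uhrf1 (-0.51) and Tet2 (-0.66) reversed, and with the length and GC correction added they were at -0.13, -0.62, -0.40 and -0.56. Of all genes 181 were higher and 7109 lower as deposited, against 1760 and 2083 scaled, 707 and 3732 with protein-coding totals (median log2 fold change -0.17), 1122 and 1348 with a filter of 5 TPM, 115 and 7153 as deposited with the correction, and 891 and 1338 without the second WT sample, the lowest with a sample left out. Quantile normalization reversed Dnmt3l (-0.23), Tet2 (-0.074) and the transcript Dnmt3a-201 (0.0078), and protein-coding totals reversed Dnmt3l (-0.13), Uhrf1 (-0.051) and Tet2 (-0.20). A filter of 5 TPM reversed Tet2 (-0.032). The length and GC correction reversed Dnmt1 (0.20), Tet1 (0.081) and Dnmt3a-201 (0.059). These reversed values did not pass except Tet2 as deposited. With a sample left out Dnmt1 ranged from -0.11 to 0.11, Dnmt3l from -0.024 to 0.20, Tet1 from -0.19 to 0.057 and Tet2 from -0.061 to 0.093.

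The transcript test called 2, 5 as deposited, 6 with the length and GC correction, 0 without a filter and 0 with any sample left out. Usage calls were 3, 0 as deposited, 1 with a filter of 5 TPM, 0 to 3 with a sample left out and 0 against the summed rest of the gene. The length and GC correction of TPM as deposited, the counts without the genes of chromosome 14 and the ratio test were added after seeing the data. The cause of these changes was not tested, and neither was the part of a smaller sample or gene set in them.

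Samples 1 and 2 of the groups share a replicate number, which no label ties to a batch. The deviations from the group means correlated at -0.18 and 0.18 over genes for the pairs, and at 0.33 between the third WT and the first C3G KO sample. With 2 C3G KO samples their deviations are mirror images, so each correlation has its opposite by construction and a pairing cannot be judged from the signs. The third WT sample is alone in its block, so fits with the block have few degrees of freedom left. With the replicate block 3 of the 8 genes passed, Dnmt1 was at 0.021 and Tet2 at -0.060, and 0 transcripts passed in the transcript and usage tests. With the block and the length and GC correction Dnmt1 was at 0.24, Dnmt3a-201 at 0.047, and 0 transcripts passed.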
